A study of Mus musculus with 30 samples.

Results

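Mouse cortical tumours given the EGFR variant T263P were compared with tumours given the red fluorescent protein mCherry, which carried no EGFR construct. The comparison used all 3 libraries of the T263P group and all 3 of the mCherry group, out of 30 libraries in 9 groups, and 15824 of the 24421 genes listed were expressed enough to be tested. The series profiled bulk tumour at postnatal day 70 and labels the tumours as glioblastoma of the cortex. The design text gives 3 to 5 mice for each variant. The other groups used here were 3 tumours given wild-type EGFR, 3 given the variant R222C, and 2 normal cortices of the same age. The labels do not give the strain, the sex of the mice, how the tumours were started, which further genetic lesions all tumours shared, or the species of the EGFR constructs. The T263P libraries are numbered 24, 27 and 29 in the sample titles, the mCherry libraries 3, 4 and a number above 37, and they are called libraries 1, 2 and 3 of each group, in that order. Nothing says that libraries of a group came from separate litters or days, so the tests measure only the spread between these libraries.

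EGFR is a receptor tyrosine kinase of the cell surface. Binding of a ligand such as EGF or TGF-alpha pairs receptors and switches on their kinase domains, which signal through RAS to the ERK kinases and through PI3K to AKT. The gene is often amplified or mutated in human glioblastoma, and T263P is a missense change in the extracellular part of the receptor, the part in which many glioblastoma mutations fall. In the brain, EGFR signalling is known for its role in neural stem cells and in glial progenitors, including oligodendrocyte precursors, the cells that give rise to myelinating oligodendrocytes.

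Levels are given as RPM, the deposited normalised count divided by 1 constant for all libraries, and it is not exactly a share of each library's total. Depth was 17587581, 7331535 and 18534750 reads in the T263P libraries and 7466221, 18178209 and 13978968 in the mCherry libraries, so that 1 read was worth 0.0523 to 0.133 RPM. RPM is not divided by gene length, so it is compared between libraries and not between genes. Differences are on the log2(RPM + 1) scale, which understates the change of genes with low levels. The T263P and mCherry libraries shared no range of library numbers, since all T263P numbers lie between 20 and 37 and all mCherry numbers outside, so the receptor form and the range of the library number cannot be told apart. The nuclear precursor of ribosomal RNA, listed as Rn45s, took 3.00% to 3.84% of the reads in the T263P libraries and 0.167% to 0.226% in the mCherry libraries, and its part in the results was not tested. T263P library 2 held reads of the Y-linked genes Ddx3y, Kdm5d, Eif2s3y and Uty at 8.11 to 27.1 RPM with Xist at 2.26 RPM, whereas the other 5 libraries had Xist at 201 to 809 RPM and those 4 genes at 0.105 RPM or less.

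One gene passed the test. Neu4 was higher in T263P tumours at an adjusted p under 0.05 in limma, which is 0.00632% of the genes tested. At an unadjusted p under 0.05 there were 878 genes (5.55%), of which 437 were higher in T263P (2.76%) and 441 lower (2.79%). The 3 T263P values lay above all 3 mCherry values for 647 genes (4.09%) and below them for 546 (3.45%). The mean log2 level was higher in T263P for 48.1% of the genes and lower for 51.9%, with a median difference of -0.02 over all genes. With the same reads, edgeR called 1 gene and DESeq2 called 47 (0.297%), 27 of them higher and 20 lower.

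**Figure D1:**
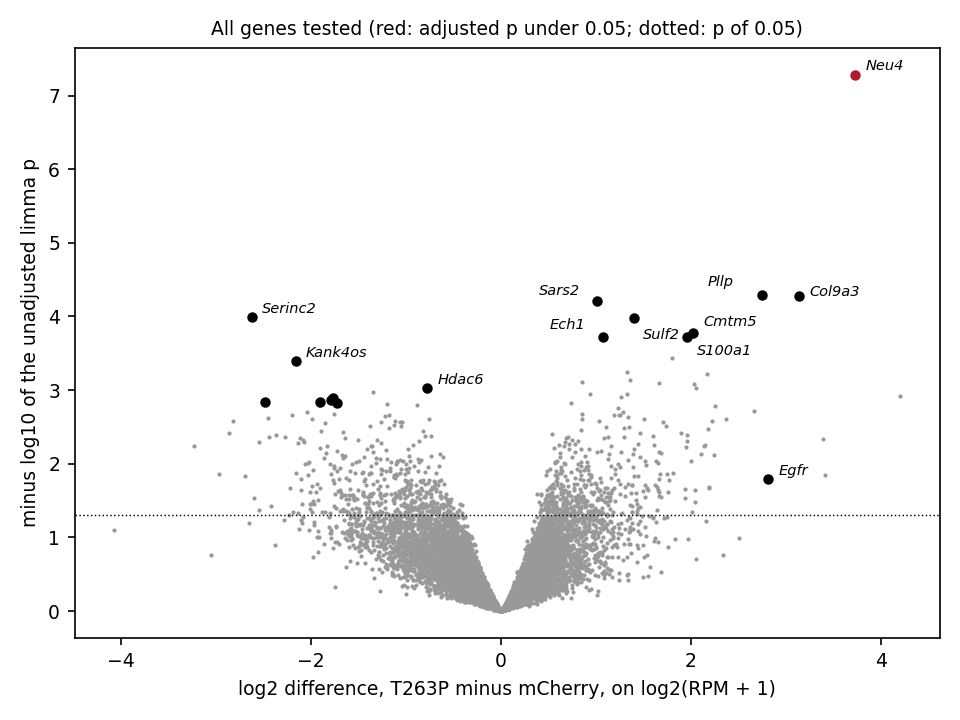
Each point is 1 of the 15824 genes tested, with its log2 difference (T263P minus mCherry, on log2(RPM + 1)) on the x axis and minus log10 of its unadjusted limma p on the y axis. Neu4, in red, stands alone at the top right with a log2 difference of 3.73, and the other named genes and Egfr are black.

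Neu4 encodes sialidase 4, an enzyme that removes sialic acid from glycoproteins and glycolipids and is made mainly in brain, and it is also a marker of oligodendrocyte precursors. It lies on chromosome 1 at chr1:94020451-94028334 (mm10, plus strand, protein coding). Neu4 measured 92.2, 58.7 and 41.7 RPM in the T263P libraries and 6.44, 1.59 and 4.26 RPM in the mCherry libraries. The lowest T263P library therefore held several times the level of the highest mCherry library, and the groups did not overlap. These values rest on 1486, 442 and 797 reads against 53, 29 and 62 reads, with exact Poisson 95% intervals, which cover counting error only, of 38.8 to 44.7 RPM in the lowest T263P library and 4.82 to 8.42 RPM in the highest mCherry library. The means were 64.2 ± 25.7 RPM (SD, n = 3) and 4.10 ± 2.43 RPM (SD, n = 3), a ratio of 15.7. The log2 difference was 3.73 (SE 0.49, 95% interval 2.73 to 4.74, limma adjusted p = 0.000821, higher in 3 of 3 libraries). The adjusted p was 0.00561 in edgeR and 5.29e-10 in DESeq2.

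Neu4 was above the mCherry tumours in every other group as well. Normal cortex held a mean of 15.4 RPM, above each of the 3 mCherry tumours and below each T263P tumour. Among the 22 other tumours Neu4 ran from 8.42 to 151 RPM with a median of 54.5 RPM, so that the T263P libraries lie within that range. The wild-type EGFR libraries held 8.42, 19.4 and 37.3 RPM, and the R222C libraries 41.5, 21.5 and 26.8 RPM. With library numbers entered as 3 ranges (below 20, 20 to 37, above 37), which takes the offset of a range from the other groups, the log2 difference of Neu4 from mCherry was 3.00 and its adjusted p in limma 0.999. When only the 6 libraries compared were fitted, the difference was the same 3.73 with an adjusted p of 0.535 in limma, and the single gene called was Rn45s.

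The stretch of 150 bases just before the RefSeq start of Neu4 and of Pllp, the gene of next smallest p, is printed. These are the 2 genes that the comparison ranks first. The RefSeq starts differ from the GENCODE positions used elsewhere, so the end of each window lies inside the gene as GENCODE places it. Both windows are on GRCm38.p6 and are written in the direction of the gene. The E-box (CANNTG, both strands, a motif bound by basic helix-loop-helix factors) is in capitals.
Neu4, chr1:94020343-94020492, plus strand: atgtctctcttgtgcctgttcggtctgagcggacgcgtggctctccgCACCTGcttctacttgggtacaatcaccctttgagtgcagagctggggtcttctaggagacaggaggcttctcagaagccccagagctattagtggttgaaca
Pllp, chr8:94696243-94696392, minus strand: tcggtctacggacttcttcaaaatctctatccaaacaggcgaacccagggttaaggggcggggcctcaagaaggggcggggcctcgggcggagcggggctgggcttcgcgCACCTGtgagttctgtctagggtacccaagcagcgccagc
Each window holds 1 E-box, of the letters CACCTG in both, and such a window is common: 47.7% of the 32851 promoter windows of this length in the table hold an E-box. Neither holds the SOX core ACAANG, which 23% of the windows hold, or the ETS core CCGGAA, which 9.23% hold.

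Behind Neu4, 7 genes are named as those of smallest p among genes higher in T263P with groups that did not overlap and whose higher group averaged 5 RPM or more. None of the 7 passed in limma (adjusted p of 0.244 to 0.333), whereas all 8, Neu4 included, passed in DESeq2 (largest adjusted p 0.0181). Pllp, the myelin proteolipid plasmolipin, measured 533, 278 and 206 RPM in T263P and 82.3, 33.2 and 34.6 RPM in mCherry, a log2 difference of 2.75 ± 0.56 (SE). The lowest T263P library was at more than double the highest mCherry library, and the cortex mean of 135 RPM lies between the groups. Col9a3, a chain of type IX collagen, measured 191, 92.6 and 270 RPM against 21.3, 17.4 and 16.6 RPM, a log2 difference of 3.13 ± 0.64 (SE). Its 3 mCherry values were close together and lower than the lowest of the 22 other tumours (36.9 RPM). Sulf2, an extracellular sulfatase that trims heparan sulfate chains, measured 599, 685 and 533 RPM against 246, 265 and 180 RPM, a log2 difference of 1.40 ± 0.31 (SE). Cmtm5, a membrane protein with a MARVEL domain, measured 75.2, 35.7 and 80.3 RPM against 19.3, 13.5 and 10.6 RPM. S100a1, a calcium-binding protein, measured 188, 193 and 97.7 RPM against 56.9, 51.3 and 19.5 RPM. For both, the lowest T263P library lay well above the highest mCherry library, with log2 differences of 2.02 ± 0.46 for Cmtm5 and 1.96 ± 0.45 for S100a1 (SE). For Sulf2 and S100a1 too, all mCherry values were below the lowest of the 22 other tumours, 285 and 79.7 RPM. The medians of those tumours were 473 and 182 RPM. For Pllp and Cmtm5 the other tumours ran from 52.8 to 619 RPM and from 7.55 to 104 RPM, ranges that held every T263P value.

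The remaining 2 of these genes, Sars2 and Ech1, differed by about a factor of 2 with little spread. Sars2, the mitochondrial seryl-tRNA synthetase, measured 23.9, 22.7 and 22.6 RPM in T263P and 9.84, 11.9 and 11.3 RPM in mCherry, a log2 difference of 1.01 ± 0.21 (SE). Ech1, an isomerase of fatty acid oxidation, measured 95.9, 115 and 91.2 RPM against 45.7, 48.8 and 46.4 RPM, a log2 difference of 1.08 ± 0.25 (SE). They are close neighbours on chromosome 7, Sars2 at chr7:28741992-28753871 and Ech1 at chr7:28825217-28832247 (mm10), with starts 83.2 kb apart. Of the 11 tested genes within 100 kb of this stretch, 8 were higher in T263P, where 48.1% of all genes were. The 8 include Sars2 and Ech1, whose direction was fixed because they were named as higher. Fbxo27, Lgals7 and Actn4 were lower. Apart from Sars2 and Ech1, which were named by a rule that asks for groups that do not overlap, 1 gene had such groups, Sirt2. Sirt2, a deacetylase that is abundant in oligodendrocytes and was looked at only because it lies between them, measured 594, 396 and 184 RPM against 147, 113 and 113 RPM, a log2 difference of 1.5 (limma adjusted p = 0.712). The groups overlapped for Fbxo17, Mrps12, Nfkbib, Rinl and Hnrnpl, which lie beside or between Sars2 and Ech1, with log2 differences of 0.11 to 0.62.

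**Figure D2:**
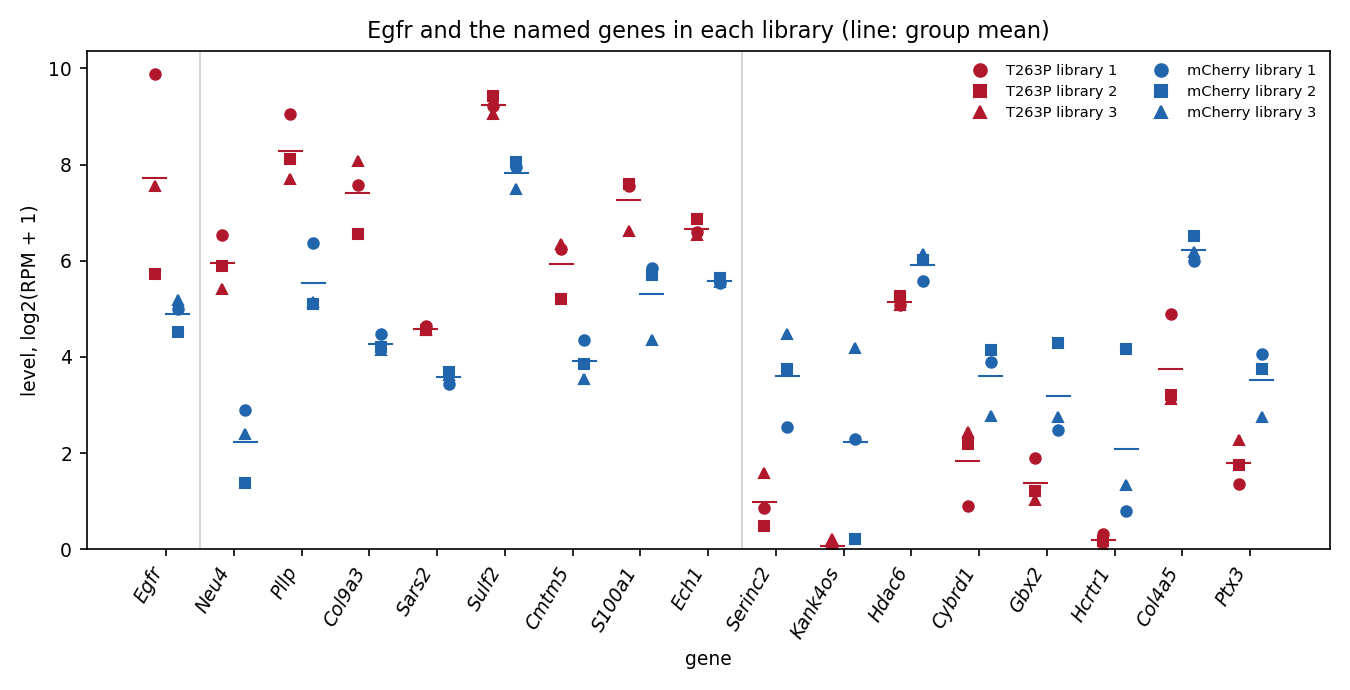
Levels of Egfr and of the 16 named genes in each library, as log2(RPM + 1) on the y axis, with red symbols for the 3 T263P libraries, blue for the 3 mCherry libraries and a line at each group's mean. For all 17 genes the red and blue symbols do not overlap, which the rule required of the 16; the T263P values of Egfr span 52.1 to 938 RPM.

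Among genes lower in T263P none passed in limma, and the 8 named by the same rule had adjusted p-values of 0.278 to 0.712, of which 4 passed in DESeq2. Serinc2, of the serine incorporator family of membrane proteins, measured 0.806, 0.399 and 1.99 RPM in T263P and 4.86, 12.5 and 21.3 RPM in mCherry, a log2 difference of -2.62 ± 0.57 (SE). Col4a5, a basement membrane collagen chain, measured 28.9, 8.24 and 7.74 RPM against 63.2, 90.5 and 71.1 RPM, a log2 difference of -2.48 ± 0.70 (SE). Hdac6, the cytoplasmic deacetylase that acts on tubulin, measured 32.8, 37.5 and 32.8 RPM against 46.9, 64.2 and 69.8 RPM, a log2 difference of -0.78 ± 0.21 (SE). In these 3 genes each T263P library was below each mCherry library, which the rule required. Col4a5 in T263P library 1 was still above the median of the 22 other tumours (23.6 RPM). It also lay in a run of neighbouring genes on chromosome X in mCherry library 1 (chrX:140948429-142390535). That run is of the kind described below, but it was not kept there. Col4a5 and Hdac6 are on the X chromosome, and without T263P library 2, the library with Y-linked reads, their log2 differences were -2.22 and -0.84. Ptx3, a secreted pattern recognition protein, measured 1.55, 2.39 and 3.82 RPM against 15.8, 12.4 and 5.71 RPM. Cybrd1, a ferric reductase of the cell membrane, measured 0.868, 3.59 and 4.39 RPM against 14.0, 16.7 and 5.84 RPM. Both were near 5.7 to 5.8 RPM in mCherry library 3, close to the top of T263P.

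In the last 3 of these genes the mCherry values were uneven, with 1 library far above the others. Gbx2, a homeobox factor, measured 2.73, 1.33 and 1.05 RPM in T263P and 4.62, 18.7 and 5.71 RPM in mCherry, highest in mCherry library 2. Hcrtr1, an orexin receptor, measured 0.248, 0.133 and 0.0523 RPM against 0.729, 16.9 and 1.51 RPM, again highest in mCherry library 2. Kank4os, a long noncoding RNA antisense to Kank4, measured 0, 0 and 0.157 RPM against 3.89, 0.165 and 17.3 RPM, so that mCherry library 2 was within 0.01 RPM of T263P library 3. Its log2 difference was -2.16, and -3.17 without mCherry library 2, where it passed in limma. Whether the counting used strand is not given in the sources used here, so reads of Kank4os and of Kank4 cannot be told apart.

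Among the pathway genes the receptor is given first. Egfr measured 938, 52.1 and 186 RPM in the T263P libraries and 30.9, 22.1 and 35.4 RPM in the mCherry libraries. The groups did not overlap, but T263P library 1 held about 5 times library 3, and library 2 was the nearest to the mCherry range. The log2 difference was 2.82 ± 1.09 (SE), with an adjusted p of 0.877 in limma, 0.469 in edgeR and 0.0656 in DESeq2. Reads from the construct and from the mouse gene are counted together only where they match the annotated gene, and the labels do not say whether the construct does, so Egfr checks the labels only in part. Over the groups given EGFR variants or wild-type EGFR the median of Egfr ran from 52.3 RPM in R108G to 586 RPM in A289I.

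The other receptors of the family and most ligands did not separate the groups. Erbb3, the kinase-impaired partner of ERBB2, measured 118, 12.2 and 119 RPM against 4.13, 97.8 and 15.6 RPM, high in T263P libraries 1 and 3 and in mCherry library 2. Erbb2 had a log2 difference of -0.54, which was 0.20 without mCherry library 2, and Erbb4, a neuregulin receptor, had one of -0.85. Of 9 ligand genes tested of 11 listed, 3 were higher and 6 lower, with a median log2 difference of -0.54. Tgfa, which encodes TGF-alpha, was the one ligand above mCherry in every T263P library, at 146, 122 and 119 RPM against 58.0, 25.8 and 42.5 RPM. Its log2 difference was 1.66 (limma adjusted p = 0.832), and it stayed between 0.97 and 1.92 under all alternatives, the lowest with the term for 3 ranges. Hbegf, Areg and Ereg, further EGFR ligands, were highest in mCherry library 2, at 110, 17.7 and 9.99 RPM, against at most 48.1, 1.74 and 0.261 RPM in T263P.

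Downstream of the receptor, no member of the adaptor, ERK or PI3K lists passed in limma. Of 20 adaptors and attenuators, 7 were higher and 13 lower (median -0.20). Sos1, which loads RAS with GTP, measured 229, 73.1 and 55.4 RPM against 50.7, 41.8 and 65.2 RPM, and its high library 1 value falls in a run of neighbouring genes described below. Errfi1, an inhibitor of the EGFR kinase that is induced by its signal, measured 24.3, 13.2 and 23.6 RPM against 27.2, 69.1 and 30.1 RPM, lower in each T263P library. Socs3, a feedback inhibitor of cytokine receptors, measured 47.9, 17.4 and 32 RPM against 35.5, 210 and 62.4 RPM, high in mCherry library 2. Of 18 ERK targets and feedback inhibitors, 2 were higher and 16 lower in T263P with a median of -0.67, and none reached an unadjusted p under 0.05. Their summed level was 2082, 1479 and 1298 RPM in T263P and 1035, 5607 and 1121 RPM in mCherry. All 3 T263P libraries were above the other 2 mCherry libraries in this sum, and without mCherry library 2 the median was 0.18 with 10 of 18 higher. Spry2, an inhibitor of receptor tyrosine kinase signalling, shows the pattern at 42.6, 27.9 and 22.2 RPM against 36.5, 180 and 35.7 RPM. Of 18 genes of PI3K, AKT and mTOR, 10 were higher and 8 lower, with a median of 0.01.

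mCherry library 2 also carried 6283 RPM of Met, the receptor for hepatocyte growth factor, whereas the T263P libraries held 5.83, 1.99 and 4.97 RPM and the other mCherry libraries 4.98 and 14.6 RPM. The mean difference of Met (-4.08, limma adjusted p = 0.879) thus rests on that library. Among the other receptor tyrosine kinases 8 of 15 were higher in T263P, with a median of 0.05. Fgfr2, a receptor for fibroblast growth factors, measured 19.4, 34.6 and 84.6 RPM against 41.3, 8.89 and 17.9 RPM, with overlapping groups. The list of glioma suppressors and drivers had 6 of 15 higher and a median of -0.12. Cdkn2b, an inhibitor of CDK4 and CDK6, measured 12, 6.64 and 17.6 RPM against 17.9, 297 and 12.7 RPM, and Atrx, a chromatin remodeller on the X chromosome, 116, 162 and 116 RPM against 236, 155 and 207 RPM. Of 15 p53 targets 6 were higher, with a median of -0.09.

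Most markers of the oligodendrocyte lineage had higher means in T263P. The tumours carried the lineage's defining genes in both groups, Olig1, Olig2 and Sox10 being at 169 RPM or more in all 6 libraries. Of 17 markers of oligodendrocyte precursors, 15 were higher in T263P, against 48.1% of all genes, with a median log2 difference of 0.86 against -0.02. Besides Neu4, which passed, 3 reached an unadjusted p under 0.05, and 5, Neu4 included, had groups that did not overlap (2.76% and 4.09% of all genes, in that direction). Gpr17, a receptor of precursors that are about to differentiate, measured 815, 734 and 463 RPM against 250, 33.1 and 298 RPM, a log2 difference of 2.25 (limma adjusted p = 0.712). Tnr, the matrix protein tenascin-R, measured 160, 224 and 93.1 RPM against 83.4, 33.4 and 57.9 RPM. Cacng4, a subunit that escorts AMPA receptors, measured 50.1, 87.6 and 80.1 RPM against 46.1, 25.9 and 47.2 RPM. In all 3 genes every T263P library was above every mCherry library, though for Cacng4 by only a few RPM in library 1. The summed level of the list was 6545, 7568 and 7846 RPM in T263P and 5028, 6151 and 5825 RPM in mCherry, without overlap. With any 1 library left out, 14 or 15 of the 17 were higher, with medians of 0.48 to 1.04. With the 3 ranges as a term, 11 were higher and the median was 0.25. The lineage list is not independent of earlier results of these data, and in bulk tumour more cells of a type and more RNA per cell cannot be told apart.

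Markers of myelinating oligodendrocytes were higher in T263P in 15 of 16 cases (median 1.45), against 48.1% of all genes, and 6 of them reached an unadjusted p under 0.05, against 2.76%, but the size of the difference came largely from 1 library. The summed level was 13977, 3372 and 1940 RPM in T263P and 2683, 1657 and 1997 RPM in mCherry, so that T263P library 3 lay among the mCherry libraries and library 1 near normal cortex (13857 and 14156 RPM). Without T263P library 1 the median was 0.49. Cnp, an enzyme of the myelin sheath, measured 1376, 817 and 669 RPM against 228, 359 and 321 RPM, the clearest of the list. Fa2h, which makes the hydroxylated fatty acids of myelin lipids, measured 134, 59.8 and 27.5 RPM against 32.4, 3.90 and 13.1 RPM, with overlapping groups. Ugt8a, the enzyme that makes galactosylceramide, measured 301, 111 and 33.5 RPM against 42.4, 40.4 and 31.7 RPM, and Mog, a surface protein of myelin, 143, 23.9 and 9.31 RPM against 21.5, 1.48 and 10.9 RPM. In both, T263P library 3 fell inside the mCherry range.

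**Figure D3:**
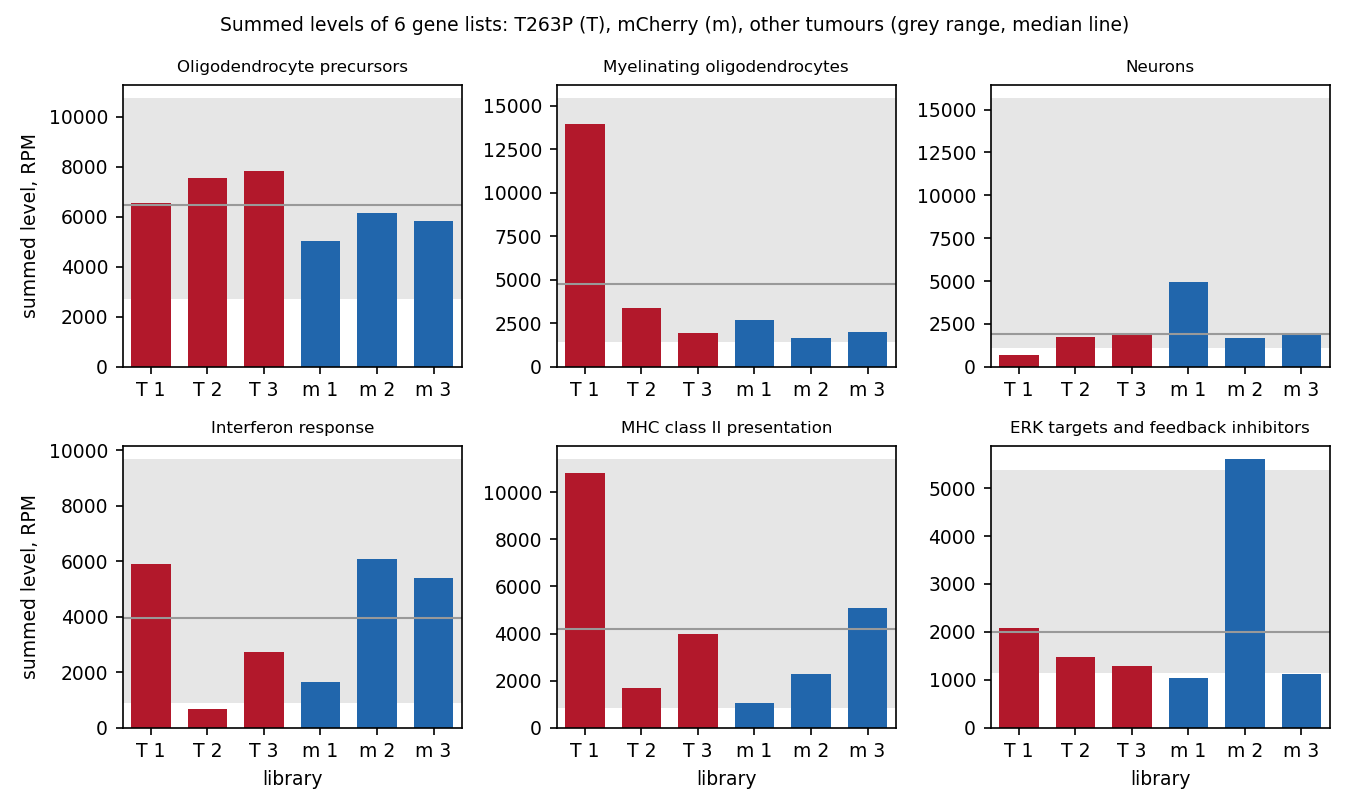
Summed level in RPM of 6 gene lists in the 3 T263P libraries (red bars) and the 3 mCherry libraries (blue bars), over the range (grey) and median (line) of the 22 other tumours. T263P library 1 stands out in myelin (13977 RPM) and MHC class II genes (10824 RPM) and is lowest in neuronal genes (675 RPM), and mCherry library 2 is highest in ERK targets (5607 RPM).

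Neuronal markers were lower in T263P in 24 of 25 cases (median -1.25), against 51.9% of all genes, with 5 at an unadjusted p under 0.05, against 2.79%, and none passing in limma. The summed level was 675, 1712 and 1906 RPM in T263P and 4936, 1699 and 1838 RPM in mCherry. T263P libraries 2 and 3 thus lay close to mCherry libraries 2 and 3, while T263P library 1 lay below the lowest of the 22 other tumours (1101 RPM) and mCherry library 1 held the most, far below normal cortex (20095 and 20146 RPM). The median was -0.38 without T263P library 1 and -0.60 without mCherry library 1. Syt1, the calcium sensor of synaptic vesicle release, measured 3.16, 65.7 and 137 RPM against 333, 84.0 and 137 RPM, and Stmn2, a microtubule regulator of axons, 1.74, 40.7 and 63.5 RPM against 126, 88.7 and 38.5 RPM. Syn1, which tethers synaptic vesicles, measured 9.99, 44.8 and 58.3 RPM against 145, 58.7 and 63.4 RPM. Its groups did not overlap by a margin of under 1 RPM. With the mean of the neuronal list as a covariate, Neu4 was still the only gene called.

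Astrocyte markers were mixed, with 6 of 18 higher and a median of -0.28, and without T263P library 1 there were 14 of 18 higher with a median of 0.30. S100b, a calcium-binding protein of astrocytes and of oligodendrocyte precursors, was the member of smallest p, at 311.4, 741 and 504 RPM against 220, 74.5 and 75.5 RPM. Its log2 difference was 2.17, with an adjusted p of 0.712 in limma and 0.0464 in DESeq2. Aldoc, a glycolytic enzyme of astrocytes, measured 376, 352 and 493 RPM against 328, 186 and 243 RPM, without overlap but with library 2 only slightly above mCherry library 1. Among 15 genes of neural stem cells and radial glia 3 were higher (median -0.36), and 8 without T263P library 1 (median 0.01). Prom1, a membrane protein of stem cells, measured 7.69, 21.5 and 12.3 RPM against 26.7, 31.9 and 26.9 RPM, lower in each T263P library.

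Genes of cell division were higher in T263P in 25 of 30 cases (median 0.42), with 2 at an unadjusted p under 0.05, where 2.76% of all genes were. The median was 0.16 without T263P library 3 and 0.22 without T263P library 1, against 0.66 without mCherry library 3 and 0.74 without T263P library 2. The summed level was 3437, 2135 and 4316 RPM in T263P and 2198, 1861 and 3199 RPM in mCherry, so the groups overlapped through T263P library 2. Tpx2, a spindle assembly factor, measured 119, 158 and 231 RPM against 84.8, 70.5 and 114 RPM, and Ube2c, which helps to degrade mitotic cyclins, 104, 84.1 and 132 RPM against 59.4, 56.4 and 61.7 RPM. In both genes all T263P libraries were above all mCherry libraries. Mki67, the antigen Ki-67 of dividing cells, measured 226, 130 and 362 RPM against 115, 68.6 and 192 RPM, with overlapping groups.

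**Figure D4:**
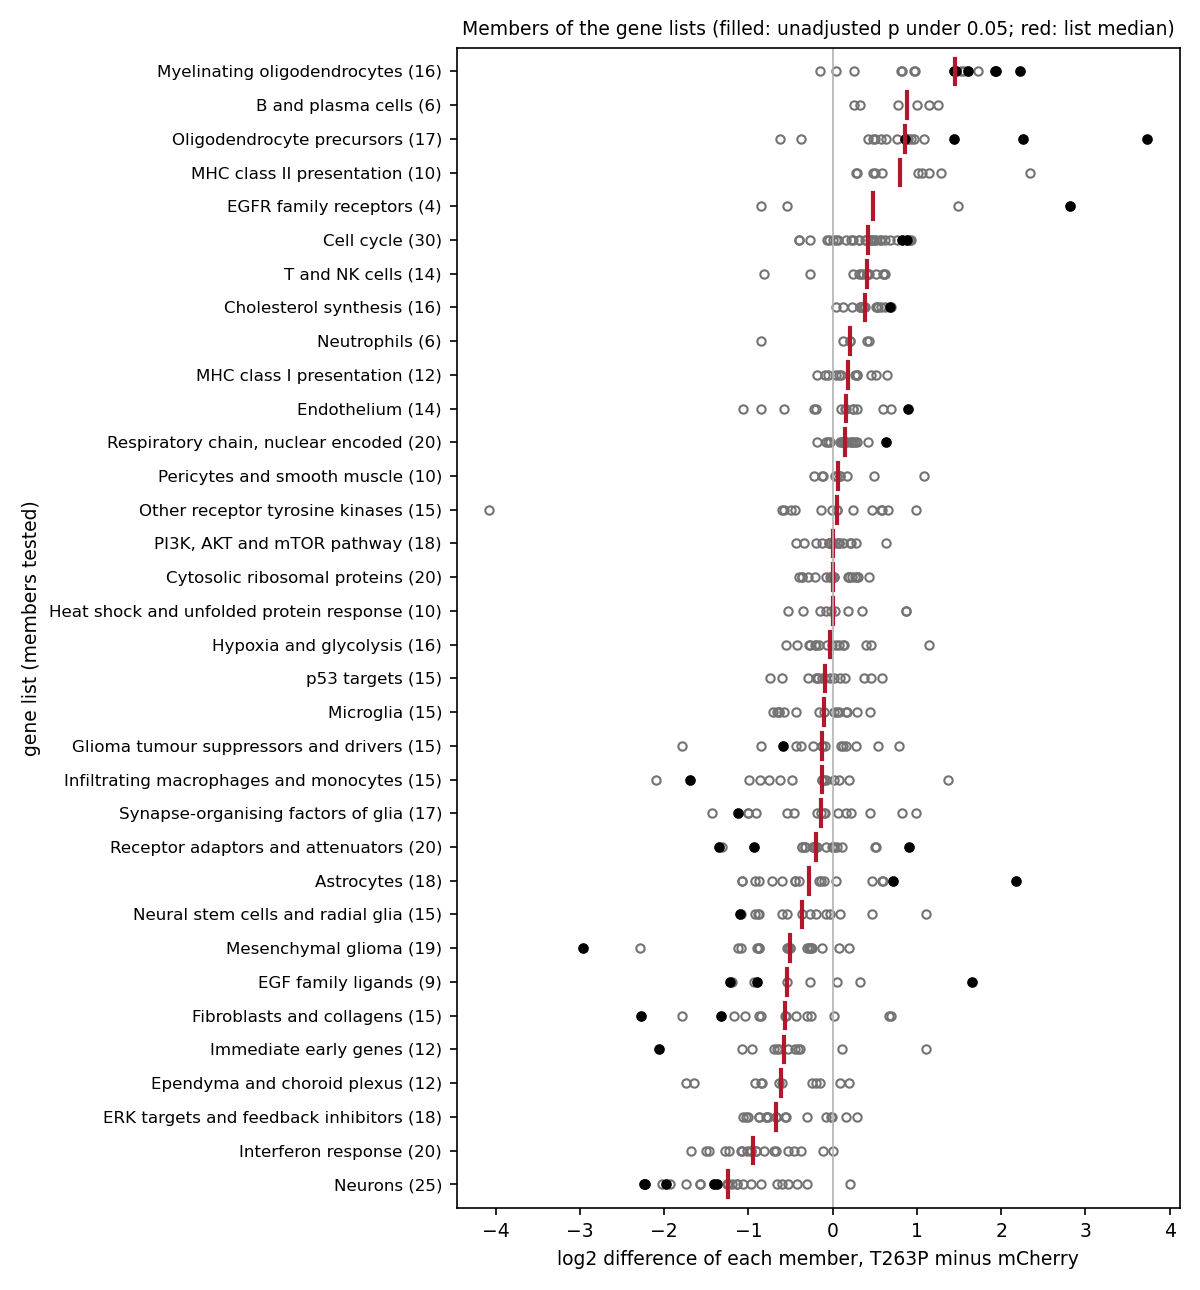
Log2 difference (T263P minus mCherry) of each tested member of 34 gene lists, 1 row per list in the order of the list medians (red bars), with members of unadjusted p under 0.05 filled. Myelinating oligodendrocytes are at the top with a median of 1.45 and neurons at the bottom with -1.25; Neu4 is the filled point at 3.73 among the oligodendrocyte precursors.

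The summed levels of every immune list overlapped between the groups, and most varied widely within them. Interferon response genes were lower in T263P in 19 of 20 cases (median -0.94), none at an unadjusted p under 0.05. Their summed level was 5905, 666 and 2746 RPM in T263P and 1633, 6092 and 5389 RPM in mCherry. T263P library 2 was below the lowest of the 22 other tumours (899 RPM), and without it the median was -0.02 with 8 of 20 higher. Isg15, a ubiquitin-like protein made on interferon stimulation, measured 269, 17 and 113 RPM against 109, 310.8 and 373 RPM. MHC class II genes, which present peptides to helper T cells, were higher in 10 of 10 cases (median 0.80), none at an unadjusted p under 0.05. Their summed level was 10824, 1709 and 3987 RPM against 1075, 2280 and 5088 RPM, which overlapped, and the median was 0.20 without mCherry library 1. Cd74, the invariant chain, measured 3970, 505 and 1145 RPM against 185, 663 and 1712 RPM, led by T263P library 1. Microglial markers had 7 of 15 higher (median -0.11) and sums of 767 to 952 RPM in T263P and 856 to 1159 RPM in mCherry. Markers of infiltrating macrophages had 4 of 15 higher (median -0.13), and 10 of 15 without T263P library 2 (median 0.41). Cd163, a scavenger receptor of macrophages, measured 0.31, 0.133 and 0.314 RPM against 1.70, 15.6 and 0.481 RPM, and Spp1, the secreted protein osteopontin, 55.8, 15.9 and 19.0 RPM against 34.3, 291 and 146 RPM, both high in mCherry library 2. MHC class I genes had 9 of 12 higher (median 0.18), and 0 of 12 without mCherry library 1. Genes of T and NK cells summed to 144, 11.8 and 25.2 RPM in T263P and 14.5, 36.7 and 47.9 RPM in mCherry. Of 14 tested, 12 were higher (median 0.40), and the median was -0.42 without T263P library 1. All 6 genes of B and plasma cells were higher (median 0.89), none at an unadjusted p under 0.05. All 6 stayed higher with any 1 library left out (medians 0.43 to 1.29). Their sums were 144, 78.3 and 41.4 RPM in T263P and 9.96, 18.4 and 150 RPM in mCherry. Neutrophil genes summed to 29.3, 12.6 and 30.5 RPM in T263P and 25.6, 14.3 and 27.2 RPM in mCherry. Of the 6 tested of 10 listed, 5 were higher (median 0.21), none at an unadjusted p under 0.05. Camp and Ngp of that list were at 0.124 RPM or less in all 6 libraries.

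No gene of vessels, matrix or the mesenchymal list passed. Endothelial genes had 9 of 14 higher (median 0.15, and -0.23 without mCherry library 1), with Vwf, a clotting protein of endothelium, at 46.1, 36.5 and 36.4 RPM against 9.48, 26.8 and 34.3 RPM. Of 15 genes of fibroblasts and collagens 3 were higher and 12 lower (median -0.56, and -0.04 without T263P library 2). Dcn, the matrix proteoglycan decorin, measured 5.46, 3.06 and 5.75 RPM against 46.3, 24.3 and 15.9 RPM, a log2 difference of -2.28 (limma adjusted p = 0.763). It was low in each T263P library and differed by 1.84 to 2.62 log2 units under the alternatives, always lower. Fn1, the matrix protein fibronectin, measured 301, 26.6 and 107 RPM against 79.2, 482 and 369 RPM, and Col6a2, a chain of collagen VI, 49.1, 22.2 and 21 RPM against 56.6, 52.0 and 71.2 RPM. Mesenchymal glioma genes were lower in 17 of 19 cases (median -0.51), but 14 of 19 were higher with the 3 ranges of library numbers as a term (median 0.30). The median was -0.09 without T263P library 2 and -1.02 without mCherry library 1. Timp1, an inhibitor of matrix metalloproteinases, measured 4.16, 0.93 and 3.19 RPM against 2.31, 188 and 31 RPM, and Tnc, the matrix protein tenascin-C, 50.7, 72.3 and 68.6 RPM against 70.4, 1907 and 222.2 RPM. In both, mCherry library 1 lay at the level of T263P and mCherry library 2 held the most.

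No gene of the metabolic and housekeeping lists passed. All 16 genes of cholesterol synthesis were higher in T263P (median 0.38), against 48.1% of all genes. Of them, 1 was at an unadjusted p under 0.05, where 2.76% of all genes were. Hmgcs1, an early enzyme of the pathway, measured 260, 210 and 166 RPM against 193, 118 and 94.9 RPM, with overlap, and Srebf2, the transcription factor that drives the pathway, 291, 237 and 175 RPM against 170, 148 and 145 RPM. Without T263P library 1 the median was 0.20. With any 1 library left out 13 to 16 of the cholesterol genes were higher, and with libraries weighted in the fit 13 were (median 0.25). Nuclear-encoded genes of the respiratory chain had 16 of 20 higher (median 0.14), with Atp5o, a subunit of ATP synthase, at 219, 191 and 312 RPM against 176, 121 and 165 RPM. Cytosolic ribosomal proteins had 10 of 20 higher (median 0.00). Immediate early genes, which respond within minutes to stimulation, had 2 of 12 higher (median -0.58, and 0.02 without T263P library 2). Egr3, a zinc finger factor of this class, measured 1.74, 4.65 and 14.0 RPM against 69.5, 27.4 and 7.36 RPM, whereas Nr4a1, an orphan nuclear receptor, measured 132, 97.7 and 125 RPM against 69.6, 48.6 and 46.1 RPM, without overlap. Hypoxia and glycolysis genes had 7 of 16 higher (median -0.04). This turned with single libraries: 0 of 16 were higher without T263P library 1 (median -0.51), and 14 of 16 without T263P library 2 (median 0.32) or without mCherry library 3 (median 0.19). With the 3 ranges as a term, 15 of 16 were higher (median 1.02). Vegfa, the vessel growth factor, measured 785, 41.2 and 72.5 RPM against 34.1, 55.2 and 113 RPM, and its log2 difference of 1.14 was -0.13 without T263P library 1.

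Several of these single-library values lay in runs of neighbouring genes. Genes averaging 10 RPM or more over the 28 tumours were followed along each chromosome in windows of 7, and neighbouring windows with a median of at least 1 log2 unit over the tumour median were joined to runs. Runs were kept where the median over the whole run was at least 1 and at least 50% of the genes were highest of all 28 tumours; this rule was set after the values were seen. Before this selection there were 33 runs, 19 in T263P (12, 4 and 3 by library) and 14 in mCherry (4, 4 and 6), among them a run with Met in mCherry library 2 that had 8 of 20 genes at their highest. The selection kept 5 in T263P and 1 in mCherry library 3, and no difference between the groups is read from these counts. In T263P library 1, a run on chromosome 17 (chr17:45433598-46169370, mm10) held 13 genes, 8 of them at their highest of 28 tumours, with a median of 2.38. It held Vegfa and Hsp90ab1, a cytosolic chaperone, which reached 15670 RPM against 3551 RPM in the next highest tumour. A second run of that library (chr17:78949405-83480361) held 15 genes, 9 at their highest, Sos1 among them, at 229 RPM against 73.1 RPM in the next tumour. In T263P library 2 there were 2 runs on chromosome 2, with 5 of 7 genes (chr2:168634438-172355749) and 11 of 18 (chr2:174284320-180085902) at their highest. The former held Bcas1, a gene of young oligodendrocytes, at 2252 RPM against 1229 RPM in the next tumour. In T263P library 3, a run of 44 genes on chromosome 11 (chr11:61223417-69323775) had 30 at their highest, including Pmp22, a myelin protein of peripheral nerve, at 797 RPM, Ncor1, a corepressor of nuclear receptors, at 449 RPM, and Aurkb, the mitotic kinase Aurora B, at 206 RPM. None of the 5 runs was shared by 2 T263P libraries. DNA copy number was not measured here, so its part in these values was not tested.

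**Figure D5:**
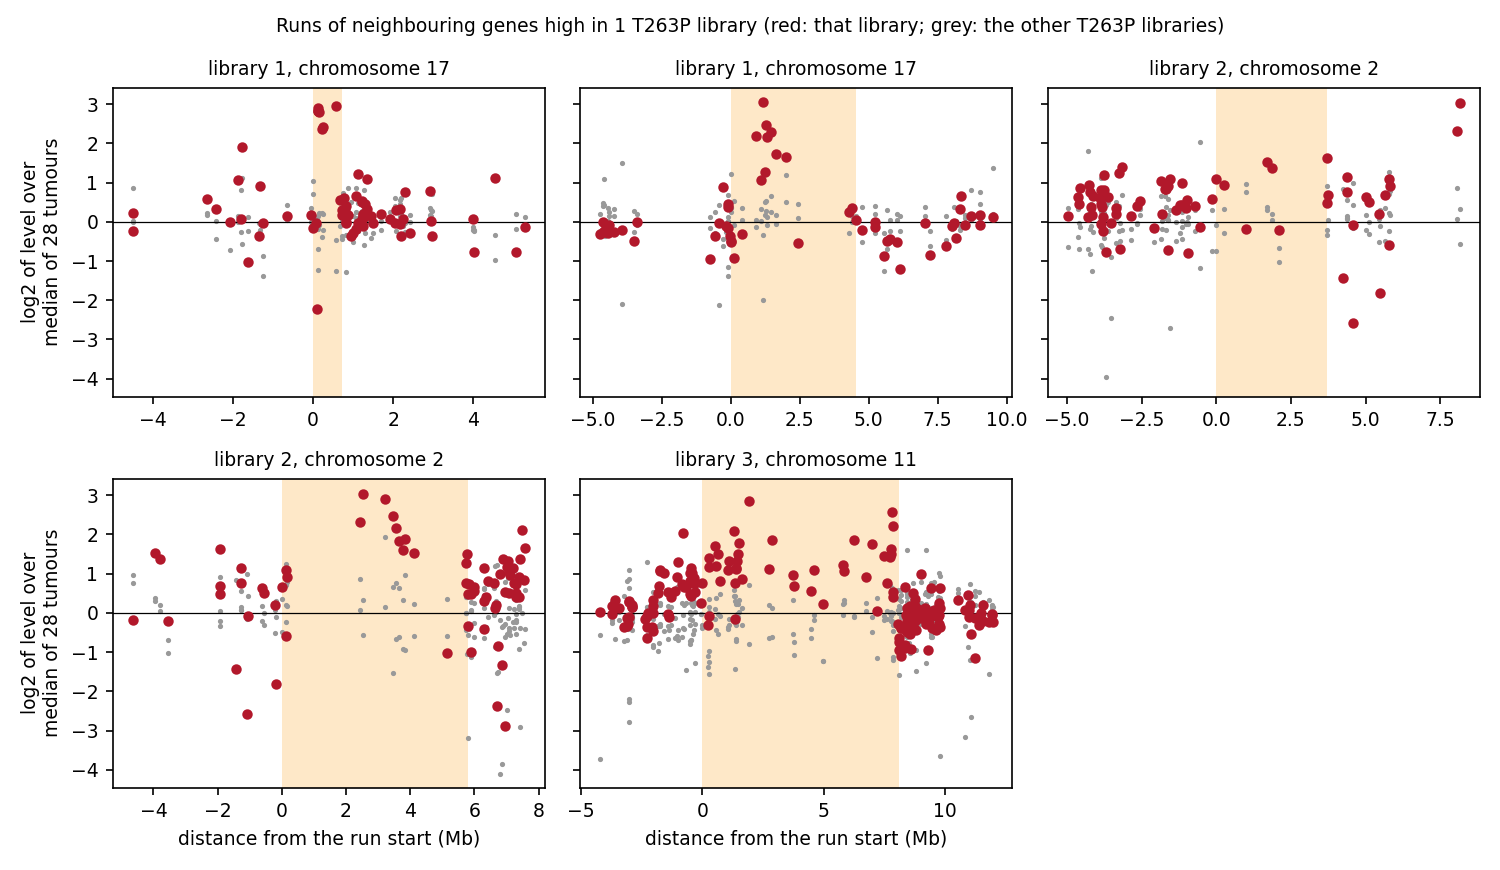
Log2 of each gene's level over the median of 28 tumours, against its distance in Mb from the start of the run (shaded), for the 5 runs of the T263P libraries, with 5 Mb on each side. Red points are the library that carries the run and grey points the other 2 T263P libraries, whose medians within the runs lie between -0.56 and 0.52. In library 3 the run on chromosome 11 spans 8.10 Mb.

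T263P was also compared with wild-type EGFR and with R222C, which show whether T263P tumours differed from tumours given another receptor form. The wild-type EGFR libraries are numbered 1, 2 and 23, so only the last lies in the range of T263P. Rn45s took 0.168%, 0.165% and 3.64% of their reads. Receptor form and range can therefore be told apart only in part in this comparison. Against wild-type EGFR no gene passed in limma (0%), 622 reached an unadjusted p under 0.05 (3.93%), edgeR called 0 and DESeq2 38 (0.24%). Against R222C, whose libraries all have numbers in the range of T263P, again no gene passed in limma (0%), with 788 at an unadjusted p under 0.05 (4.98%), 0 in edgeR and 18 in DESeq2 (0.114%). A count of 0 does not show that the tumours were alike: the 95% intervals of the genes of smallest p were wide. Zcchc24, a zinc finger gene, measured 183, 492 and 351 RPM in T263P and 112, 100 and 177 RPM in wild-type EGFR (log2 difference 1.32, interval 0.68 to 1.96). Phf7, a gene with a PHD finger, measured 8.50, 15.5 and 10.1 RPM against 5.17, 2.88 and 5.30 RPM. Both were higher in each T263P library. Hebp2, a heme-binding protein, measured 0.992, 3.19 and 1.62 RPM against 8.66, 11.7 and 8.89 RPM (log2 difference -1.93, interval -2.79 to -1.07). Morc1, a gene of germ cells, measured 0, 0 and 0.209 RPM against 20.8, 225 and 2.49 RPM, with most of it in 1 wild-type library.

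Ptx3 was the gene of smallest p against R222C and was named against mCherry as well. It measured 20.3, 11.3 and 25.5 RPM in R222C against 1.55, 2.39 and 3.82 RPM in T263P, a log2 difference of -2.46 (interval -3.46 to -1.46, limma adjusted p = 0.302). The comparisons share the T263P libraries. Its 3 T263P values lay at the low end of the tumours, where the 22 others ran from 2.54 to 43.9 RPM. The R108G tumours were at a like level, 2.54 to 3.50 RPM, and the normal cortices lower, at 0.516 and 0.707 RPM. Iapp, the peptide hormone amylin, measured 0.186, 0.266 and 1.05 RPM in T263P against 2.41, 8.26 and 12.2 RPM in R222C, without overlap. Ttc5, a cofactor of the p53 pathway, measured 30.9, 36.9 and 50.4 RPM against 23.6, 18.8 and 18.0 RPM. Rabgap1l, a regulator of Rab proteins, measured 363, 57.5 and 43.5 RPM against 25.1, 25.1 and 22.9 RPM, highest in T263P library 1. Over all genes, 47.8% were higher and 52.2% lower in T263P than in wild-type EGFR (median -0.02), and 48.4% higher and 51.6% lower than in R222C (median -0.01). Between T263P and wild-type EGFR, 15 of 17 precursor markers (median 0.45) and 16 of 16 myelin markers (median 0.54) were higher in T263P. Of mesenchymal genes, 19 of 19 were lower (median -1.12). None of these genes passed, and the summed levels of each list overlapped. Myelin sums were 13977, 3372 and 1940 RPM in T263P and 2419, 3663 and 4063 RPM in wild-type EGFR. Mesenchymal sums were 2642, 1185 and 1896 RPM against 4562, 6935 and 2032 RPM. Wild-type libraries 1 and 2, which lie outside the T263P range of library numbers, also carried 4610 and 3853 RPM of Met. The part of Met and of the range in these list differences was not tested. Between T263P and R222C, 13 of 17 precursor markers (median 0.18) and 15 of 16 myelin markers (median 0.78) were higher in T263P. Of mesenchymal genes, 18 of 19 were lower (median -0.88). The R222C libraries held 3735, 2446 and 2467 RPM of the myelin list, each above T263P library 3. Cell cycle genes were higher than in R222C in 29 of 30 cases (median 0.41), and ERK targets lower in 18 of 18 (median -0.73). The summed levels of these 2 lists overlapped between the groups. Precursor sums did not, at 6545, 7568 and 7846 RPM in T263P against 6266, 4737 and 5405 RPM in R222C. Mesenchymal sums, 2642, 1185 and 1896 RPM against 2646, 3140 and 3828 RPM, were separated by only a few RPM. Genes of fibroblasts and collagens were lower than in R222C in 15 of 15 cases (median -1.08), against 51.6% of all genes. Immediate early genes were lower in 11 of 12 (median -0.79). The sums of both of these lists overlapped.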

How the data were processed

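Bulk RNA of 30 libraries was analysed, 3 from T263P and 3 from mCherry tumours. Libraries were stranded mRNA libraries, per the labels' protocols, and the submitters' processing notes list mm10, DESeq2 1.20.0, STAR 2.5.0a and FastQC, giving no roles; the counter, annotation and strand setting are not given in the sources used here. The deposited values are named RPM, on which the design was based, but they are a signal per gene that the authors made by dividing gene counts by 1 size factor per library: all values came to whole reads within 0.05 of a read. They were divided by 10.2638 and called RPM. The 15824 genes that reached 1 RPM in 3 or more libraries were fitted on log2(RPM + 1) by limma 3.58.1 in R 4.3.3 (9 group means, all 30 libraries, two-sided, robust and with trend, residual degrees of freedom 21, Benjamini-Hochberg over all genes, threshold 0.05), and this replaced a test on true RPM. edgeR 4.0.16 (quasi-likelihood) and DESeq2 1.42.0 ran on the recovered reads. The fit was tested on simulated data. Positions came from GENCODE M21 on mm10. RefSeq promoters matched 15 of the 16 named genes.

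The comparison, the gene lists and their members were chosen with earlier results of these data known. Named genes were, per direction, passing genes with groups that did not overlap and a higher group that averaged 5 RPM or more (12 at most), filled up to 8 by smallest p, and up to 4 members of smallest p per list; Sirt2, the genes beside it, the genes of runs, Olig1, Olig2, Sox10, Camp and Ngp were chosen after their values were seen. Predicted loci were passed over. Alternatives changed the pseudocount, filter, normalization, weights, samples fitted, library number ranges and tool, added the neuronal list as a covariate, or left out 1 library.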

Additional observations from a re-analysis of the deposited data

How the results depend on the processing

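The count for T263P against mCherry was 1 under the main test, 0 with library numbers as 3 ranges, 47 in DESeq2 and 1 to 3 with 1 library left out (2 without mCherry library 1, 3 without mCherry library 2, 2 without T263P library 2). It was 1 under the 9 other alternatives that keep all libraries, but with only the 2 groups fitted the gene was Rn45s. Against wild-type EGFR the count of 0 became 38 in DESeq2 and 0 to 2 with 1 library left out (2 without wild-type library 3, 1 without T263P library 2), and against R222C 18 in DESeq2 and 0 to 2 (2 without R222C library 1 or T263P library 3, 1 without T263P library 2). The cause was not tested. Neu4 kept its direction in 17 of 17 alternatives (log2 difference 3.00 to 4.07) and was called in 15. These are not all separate checks. Library numbers entered as 2 ranges (up to 37, above 37) give the same log2 differences as leaving out mCherry library 3. Only the mCherry group spans both ranges, so that term does not adjust T263P for its range. Among all named genes the direction reversed in 2 cases, Erbb2 without mCherry library 2 (0.20, against -1.07 without mCherry library 1) and Vegfa without T263P library 1 (-0.13, against 1.98 without T263P library 2). No paired analysis was possible because the labels number libraries across the whole series and give no replicate numbers that groups share. With 3 libraries a group, the median standard error of a log2 difference was 0.35, which limits what could pass.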

Other observations

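Some genes were far higher in 1 T263P library than in any other tumour. Genes of at least 10 RPM that reached at least 3 times the highest of the other 27 tumours numbered 18 in T263P library 1, 9 in library 2 and 9 in library 3, against 5, 18 and 13 in the mCherry libraries. In T263P library 1 these included Zfhx2, a homeobox gene, at 172 RPM (next tumour 23.8 RPM), Uvrag, an autophagy gene, at 264 RPM (next 65.5 RPM), and Cd5l, a macrophage protein, at 26.7 RPM (next 3.77 RPM). In library 2 they included Col10a1, the collagen of hypertrophic cartilage, at 69.9 RPM (next 1.60 RPM) and Grwd1, a ribosome assembly gene, at 272 RPM (next 69.1 RPM). In library 3 they included Nek1, a kinase of the primary cilium, at 578 RPM (next 39.5 RPM), Zic1, a zinc finger factor of the cerebellum, at 217 RPM (next 24.5 RPM), and Tet2, a DNA demethylase, at 116 RPM (next 31.4 RPM). These genes were picked after their values were seen and carry no test.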
